A study of Mus musculus with 16 samples.

Results

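The 33 genes described here encode proteins of the synapse: proteins of the synaptic vesicle, the machinery that fuses it, the active zone that holds it, the scaffold of the postsynaptic side and the adhesion molecules that join both sides. They were chosen as the rows of the deposited count table whose symbol is one of 33 listed names, among 55385 genes in all. Each symbol was found once, and all 33 genes passed the low-count filter. By role they are 8 vesicle proteins and transporters, 6 genes of the fusion machinery, 4 of the active zone, 2 of endocytosis, 6 postsynaptic scaffold genes, 3 postsynaptic signalling genes and 4 adhesion genes. The 16 libraries were made from polyadenylated RNA of brain cortex of 9-month-old mice, 4 per group, with 2 females and 2 males each. The groups were 5xFAD-Dp16, which carries both alterations, 5xFAD, Dp16 and wild-type C57BL/6J. 5xFAD mice are an amyloid model of Alzheimer's disease whose transgenes are driven by the neuronal Thy1 promoter, and Dp16 mice carry a second copy, on chromosome 16, of a segment whose genes match many of those present in excess in Down syndrome. No member lies on chromosome 16.

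At a synapse, vesicles filled with glutamate or GABA dock at the active zone and fuse when calcium binds synaptotagmin, which acts on the SNARE complex of Snap25, Stx1a and Vamp2. Complexins clamp and trigger that step, and dynamin and amphiphysin retrieve the membrane. Across the cleft, PSD-95 and the Shank and Homer scaffolds anchor receptors beside the calcium-dependent kinase Camk2a, and neuroligins bind presynaptic neurexins. Synapse loss is a known feature of Alzheimer's disease and of its amyloid models.

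The members were expressed over a wide range. On the scale of RPKM, which is per length and so comparable between genes, Snap25 was highest with 2303 ± 465 RPKM (SD, n = 16 libraries). Nrgn, which encodes the calmodulin-binding postsynaptic protein neurogranin, followed with 1513 ± 337 RPKM. The next were Syp at 508, Vamp2 at 386.5 and Camk2a at 381 mean RPKM, whose library ranges overlapped. The lowest 3 were Slc17a6 at 5.03, Nlgn1 at 4.75 and Pclo at 4.23 mean RPKM, which also overlapped. Slc17a7 (VGLUT1), the vesicular glutamate transporter of cortical neurons, averaged 259 RPKM, far above Slc17a6 (VGLUT2), the transporter known mainly from thalamic and other subcortical projection neurons. The coefficient of variation of CPM over the 16 libraries was lowest for Nlgn1, at 11.4%, and highest for Shank1, at 43.2%.

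Promoter windows, from 250 bases before to 50 bases after a gene start, were taken from RefSeq on GRCm38.p6 and matched 27 members with 42 windows. The members without a window were Snap25, Vamp2, Shank1, Shank2, Camk2a and Nrxn2. Of 6 motifs searched on both strands, the half-site of the neuronal gene repressor REST (TTCAGCACC) lay in 3 of the 42 windows, those of Nlgn1, Syn1 and Unc13a, and in 0.371% of the 32851 windows of all genes. The GC box (GGGCGG) lay in 20 of the 42 windows and in 35.7% of all. The cyclic AMP response element (TGACGTCA) lay in 1 member window, that of Syn1, and in 1.79% of all. The E-box (CACGTG) and the binding site of NRF1, a factor of nuclear genes for mitochondria, lay in 1 member window each, those of Sv2b and Bsn, against 7.15% and 0.971% of all windows. The TATA box (TATAAA) lay in 3 member windows and in 13.6% of all. The median window held 15 CG dinucleotides among the members and 7 among all genes. Shown are the windows of Rims1 and Slc17a6, the members with the largest differences between 5xFAD and wild-type, and of Syn1 and Unc13a, which hold a REST half-site, 5′ to 3′ on the gene's strand. Capitals mark TTCAGCACC, GGGCGG and TGACGTCA on either strand, and no marked motif overlapped another.
Rims1 (chr1:22806109-22806408, minus strand): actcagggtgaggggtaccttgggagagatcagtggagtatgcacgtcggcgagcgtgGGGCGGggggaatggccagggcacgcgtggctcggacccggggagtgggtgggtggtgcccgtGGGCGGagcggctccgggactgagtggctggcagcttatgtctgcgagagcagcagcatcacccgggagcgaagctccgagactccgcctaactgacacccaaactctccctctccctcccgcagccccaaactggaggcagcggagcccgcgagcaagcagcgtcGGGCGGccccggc
Slc17a6 (chr7:51621580-51621879, plus strand): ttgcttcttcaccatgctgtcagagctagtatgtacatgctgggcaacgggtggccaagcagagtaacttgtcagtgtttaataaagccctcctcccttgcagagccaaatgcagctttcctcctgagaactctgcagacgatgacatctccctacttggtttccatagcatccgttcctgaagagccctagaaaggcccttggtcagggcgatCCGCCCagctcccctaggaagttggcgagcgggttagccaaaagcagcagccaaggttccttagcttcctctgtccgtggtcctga
Syn1 (chrX:20920869-20921168, minus strand): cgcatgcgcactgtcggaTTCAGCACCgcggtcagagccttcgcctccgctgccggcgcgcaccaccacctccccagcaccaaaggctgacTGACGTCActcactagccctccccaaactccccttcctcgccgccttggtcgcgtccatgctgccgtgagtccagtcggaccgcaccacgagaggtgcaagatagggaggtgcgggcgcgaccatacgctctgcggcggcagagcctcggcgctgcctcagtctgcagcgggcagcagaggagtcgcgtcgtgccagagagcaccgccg
Unc13a (chr8:71671708-71672007, minus strand): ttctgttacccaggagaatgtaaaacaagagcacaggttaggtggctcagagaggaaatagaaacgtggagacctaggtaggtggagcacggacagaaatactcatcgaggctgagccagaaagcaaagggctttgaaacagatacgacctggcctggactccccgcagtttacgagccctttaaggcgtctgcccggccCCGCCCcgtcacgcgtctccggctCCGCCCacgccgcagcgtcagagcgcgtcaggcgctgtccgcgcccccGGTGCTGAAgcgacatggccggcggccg
The Rims1 window held 26 CG dinucleotides and 3 GC boxes, and the Slc17a6 window 8 and 1. A match is a match of letters only.

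The libraries had 16874481 to 22912168 counts and differed in how counts depended on gene length. For each library, the deviation of log2 CPM from the mean of all libraries was regressed on log2 exonic length over 11624 protein-coding genes, members left out. This length slope ran from -0.112 to 0.157 in 5xFAD-Dp16, from -0.129 to 0.156 in 5xFAD, from -0.181 to 0.139 in Dp16 and from -0.439 to 0.281 in wild-type. Both ends of the range were wild-type libraries, replicate 3 being lowest and replicate 1 highest. In 5xFAD both females were above 0 (0.156 and 0.124) and both males below it (-0.129 and -0.065). The slope on transcript GC content moved with the length slope (Pearson r = 0.916 over the 16 libraries, which share the counts both are taken from), so length and base composition could not be told apart as the factor. Of the 33 members, 23 had their lowest CPM in wild-type replicate 3 and 23 had their highest in wild-type replicate 1. How many of all genes have their lowest or highest value in these libraries was not counted. The members' share of all counts was 1.51% in wild-type replicate 3 and 2.70% in wild-type replicate 1, the lowest and highest of the 16. For this reason the tests are given both without the length slope in the model and with it.

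**Figure D1:**
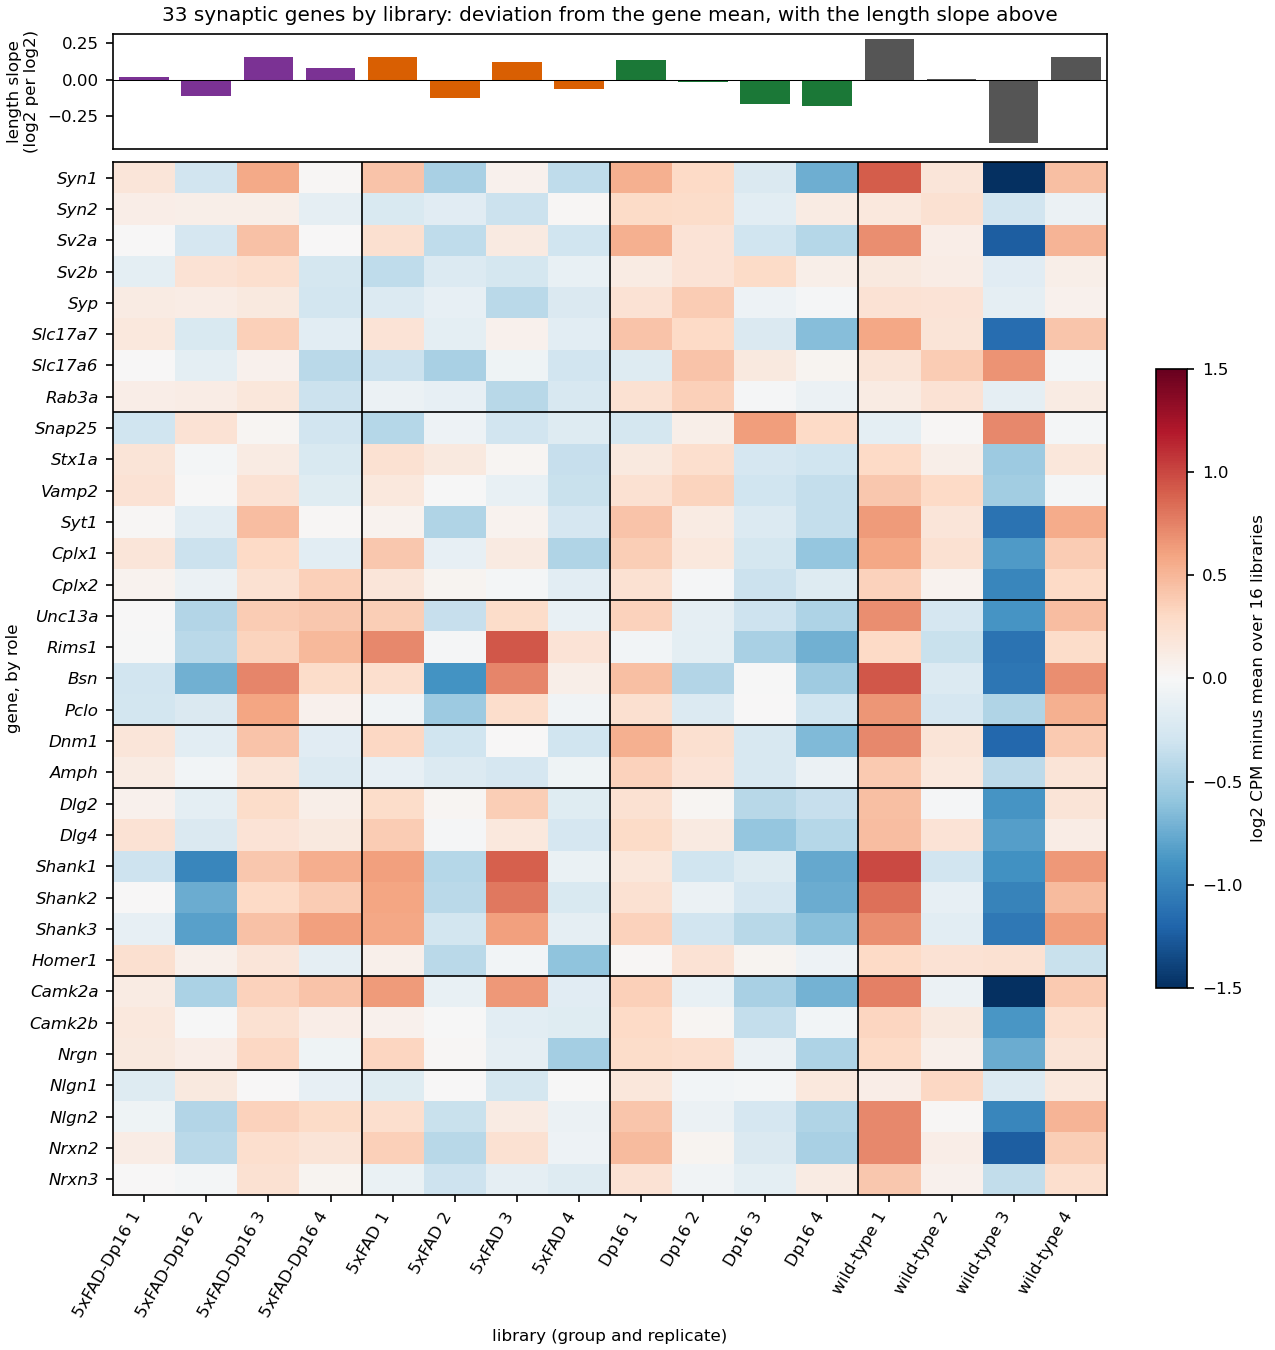
Deviation of log2 CPM from the gene's mean over 16 libraries (colour) for the 33 members, by role from top to bottom, with each library's length slope as bars above. Wild-type replicate 3, with the lowest slope, holds the lowest value of 23 members (share of all genes not counted), and Snap25 and Slc17a6 are high there.

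Added to the model, the length slope accounted for differences in 26 of the 33 members (edgeR's quasi-likelihood test, Benjamini-Hochberg adjusted p under 0.05), 25 of them higher where the slope was higher and 1 lower. Of all 17555 genes tested 59% passed for this term, 30.2% higher and 28.8% lower. Syn1, which encodes the vesicle-tethering synapsin I, was steepest, with a coefficient of 3.24 ± 0.24 log2 CPM per unit of slope (SE, adjusted p = 4.39e-10). Its CPM in 5xFAD-Dp16 was 383, 278, 501 and 341, in 5xFAD 453, 242, 353 and 259.5, in Dp16 487.5, 416, 292 and 203, and in wild-type 637, 382, 118 and 463. The wild-type group alone spanned the whole range of the 16 libraries. Camk2a, the alpha subunit of the calcium/calmodulin-dependent kinase, had a coefficient of 3.14 ± 0.18 (adjusted p = 9.08e-11). The 3 Shank genes, Bsn, Sv2a and Nrxn2 followed, with coefficients of 2.63 to 3.08.

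At the other end, Snap25, which encodes the membrane-bound SNARE of the presynaptic side, had a coefficient of -1.33 ± 0.22 (adjusted p = 2.1e-05). Snap25 had 4124, 5882, 5152 and 4157 CPM in 5xFAD-Dp16, 3746, 4806, 4150 and 4432 in 5xFAD, 4224, 5368, 7828 and 6233 in Dp16, and 4553, 5122, 8364 and 4947 in wild-type. Its highest values were thus in wild-type replicate 3, Dp16 replicate 3 and Dp16 replicate 4, the libraries of the 3 lowest slopes. Slc17a6 had a coefficient of -0.50 ± 0.28 (adjusted p = 0.137), and Homer1, Sv2b, Nlgn1, Syp, Rab3a and Syn2 had coefficients of 0.15 to 0.40 that did not pass. Length alone did not order the members. Exonic length ran from 1453 bases in Nrgn to 22051 in Pclo, and Homer1 and Nlgn1, at 11508 and 11850 bases, had coefficients near 0. Across the 33 members the coefficient correlated with log2 exonic length at Pearson r = 0.284 and with transcript GC content at r = 0.611, while across 11611 other protein-coding genes these were 0.603 and 0.279. These are descriptions across genes, which share the libraries and are not independent. Homer1 and Nlgn1 had the lowest transcript GC of the members, 36.9% and 38.9%. The others with coefficients of 0.15 to 0.40 were not low in GC. Syp had 56.62%, Rab3a 55.01%, Syn2 51.56% and Sv2b 46.78%. The factor behind the coefficients was not tested.

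**Figure D2:**
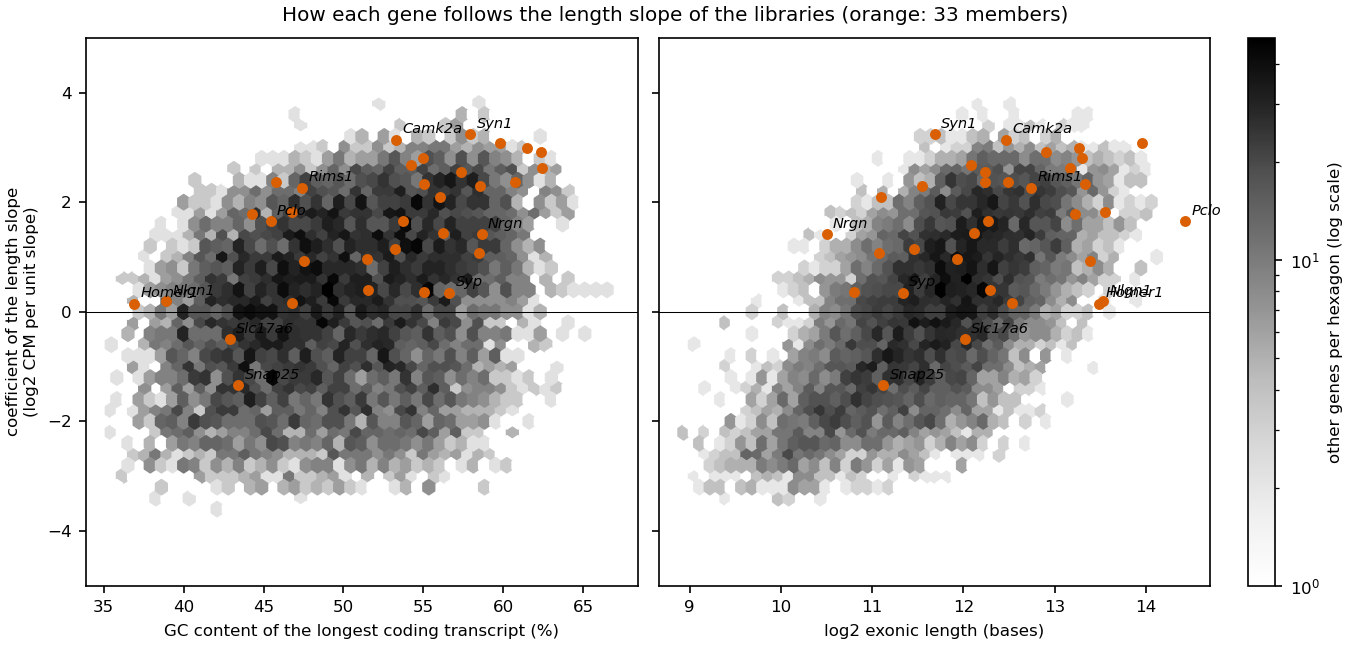
Coefficient of the length slope for each gene against transcript GC content (left) and log2 exonic length (right); orange points are the 33 members and grey hexagons other protein-coding genes. Homer1 (0.15) and Nlgn1 (0.20) lie near 0 and are long and of low GC content. Syp, which also did not pass for this term, is short (2591 bases) with 56.62% GC. Snap25 (-1.33) lies lowest of the members.

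Without the slope, no member passed in any of the 5 pairwise comparisons. In 5xFAD against wild-type, 0 of 33 members passed while 1.52% of all genes did. There 3 members had an unadjusted p under 0.05, a level reached by 7.1% of all genes. In the same comparison 26 members lay below 0, as did 10319 of all 17555 genes tested. The median member difference was -0.16 log2 and the median over all genes -0.06. In 5xFAD-Dp16 against wild-type 0 members passed, with 0.501% of all genes, and 1 member had an unadjusted p under 0.05, as did 4.52% of all genes. In 5xFAD-Dp16 against Dp16, 5xFAD-Dp16 against 5xFAD, and Dp16 against wild-type, 0 members passed and 0 had an unadjusted p under 0.05, with 0.387%, 0.0057% and 0.0057% of all genes passing and 3.92%, 3.59% and 2.2% at the unadjusted level, in that order. For the average 5xFAD effect over both backgrounds 0 members passed, with 2.18% of all genes, and 4 had an unadjusted p under 0.05, as did 8.48% of all genes. DESeq2's Wald test called 1 member, Slc17a6, in 5xFAD against wild-type and in the average 5xFAD effect and 0 in the other comparisons, and limma on log2 RPKM called 0 in all. With the length slope in the model, edgeR's common biological coefficient of variation was 0.161 instead of 0.292. Then 5 members passed in 5xFAD against wild-type, 2 higher and 3 lower. Of all genes 5.29% passed there, 3.99% higher and 1.3% lower. The average 5xFAD effect likewise gave 5 members, 1 higher and 4 lower, where 6% of all genes passed, 4.63% higher and 1.37% lower. Leaving out 1 library in the fit with the slope gave 1 to 6 members in 5xFAD against wild-type, and 1, Rims1, without 5xFAD replicate 2 or wild-type replicate 3. For the average effect it gave 1 to 7 members, and 1, Rims1, without 5xFAD-Dp16 replicate 4, 5xFAD replicate 2 or wild-type replicate 2.

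**Figure D3:**
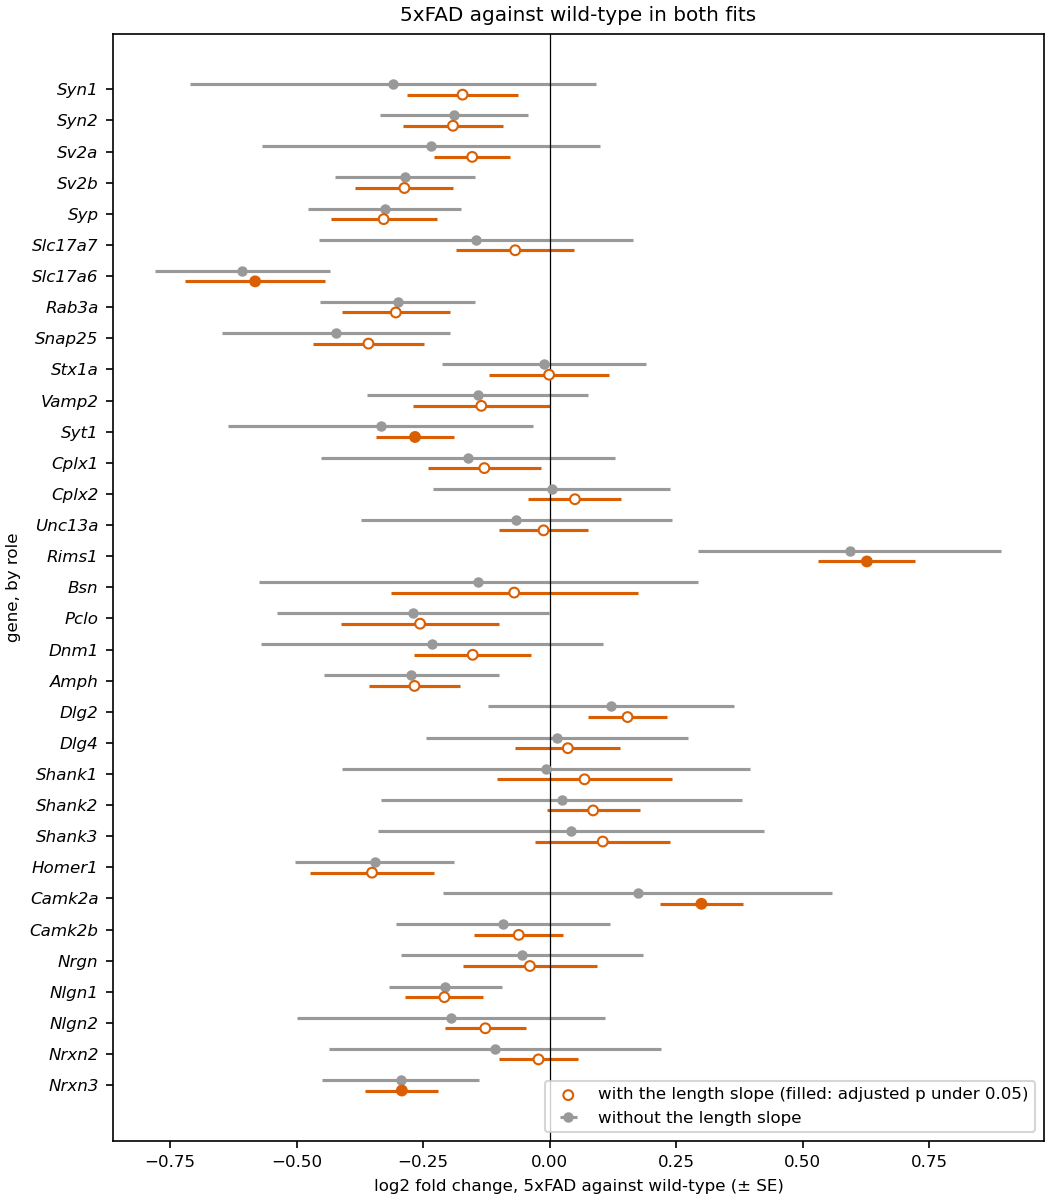
Log2 fold change of the 33 members in 5xFAD against wild-type with its standard error, without (grey) and with (orange) the length slope in the model; filled orange points have an adjusted p under 0.05. Rims1 (0.63) and Camk2a (0.30) lie above 0 among the filled points, and Slc17a6 (-0.58), Nrxn3 (-0.29) and Syt1 (-0.27) below.

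All 8 genes of vesicle proteins and transporters had negative estimates in 5xFAD against wild-type, as did 10319 of all 17555 genes tested. The median of the 8 was -0.29 log2, and 1 passed in the fit with the slope. That gene was Slc17a6, which loads glutamate into vesicles. It had 16.4, 14.65, 19.6 and 16.8 CPM in 5xFAD, against 23.45, 26.7, 32.7 and 20.02 CPM in wild-type. Every 5xFAD library was below every wild-type library, as in 1.52% of all genes tested. It was the only member whose groups did not overlap in that comparison, 0 members lying wholly above wild-type, as 3.67% of all genes did. In 5xFAD-Dp16 it had 20.5, 18.5, 21.3 and 15.45 CPM and in Dp16 17.9, 27.5, 22.6 and 21.1, and both groups overlapped wild-type. The difference in 5xFAD was -0.61 ± 0.17 log2 (edgeR's adjusted p = 0.134) and, with the length slope, -0.58 ± 0.14 (adjusted p = 0.012). In 5xFAD-Dp16 against wild-type it was -0.43 ± 0.17 (adjusted p = 0.826) and, with the slope, -0.40 ± 0.14 (adjusted p = 0.211). With the slope, the call in 5xFAD was lost without 5xFAD replicate 2 (adjusted p = 0.0821), wild-type replicate 2 (0.067) or wild-type replicate 3 (0.104), and the difference ran from -0.65 to -0.49 over the 16 fits that left out a library. Markers of thalamus and midbrain, where this gene is abundant, summed to 188.8 CPM in wild-type replicate 3, which also had the highest Slc17a6, and to 80.3 to 98.9 CPM in the other libraries. Their part in the difference was not tested. In RNA of whole cortex, fewer cells of a type and less RNA per cell cannot be told apart.

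**Figure D4:**
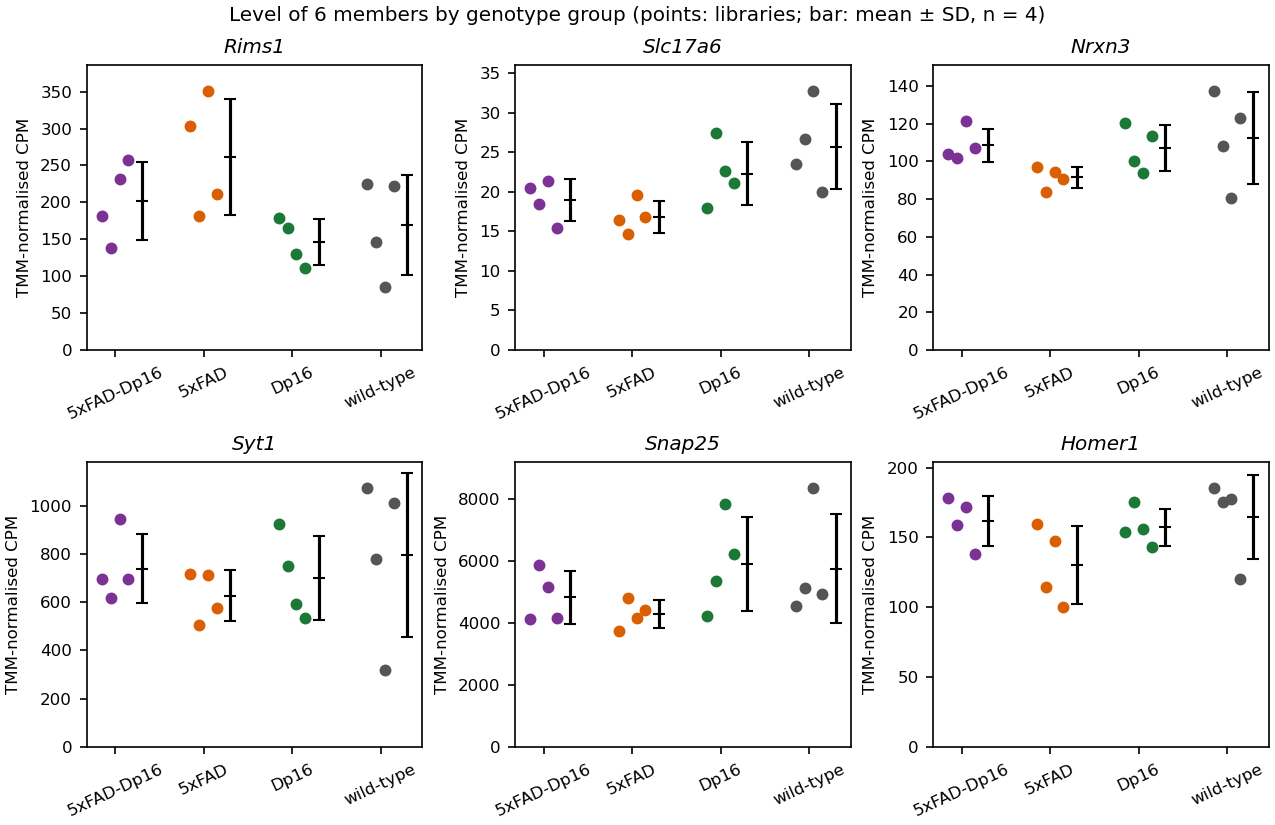
TMM-normalised CPM of 6 members in each library (points), with mean and SD to the right of each group of 4. For Slc17a6 the 4 5xFAD libraries (14.65 to 19.6 CPM) all lie below the 4 wild-type libraries (20.02 to 32.7 CPM), and in the other 5 panels these groups overlap.

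The other vesicle genes moved less. Syp, which encodes the vesicle membrane protein synaptophysin, had 1131, 1191, 985 and 1122 CPM in 5xFAD, against 1510, 1498, 1182 and 1357 CPM in wild-type, a difference of -0.33 ± 0.15 log2 (adjusted p = 0.690). The highest 5xFAD library, at 1191 CPM, overlapped only wild-type replicate 3, and without that library the difference was -0.39 (adjusted p = 0.301). Sv2b, a vesicle glycoprotein, had 267, 301.5, 289 and 322 CPM in 5xFAD, against 385, 375, 309 and 368 CPM in wild-type. It differed by -0.29 ± 0.14 (adjusted p = 0.721), and the groups overlapped only through wild-type replicate 3. Without that library the difference was -0.335 (adjusted p = 0.341). How many of all genes overlap only through wild-type replicate 3, the library of lowest slope, was not counted. In 5xFAD-Dp16 Sv2b had 315, 403, 414 and 289.9 CPM and in Dp16 378, 401.5, 422 and 367. Its average Dp16 effect was 0.20 ± 0.10 (adjusted p = 1), the smallest p among the members in that comparison, where 0 members and 0.0968% of all genes passed, and 0 members and 4.29% of all genes had an unadjusted p under 0.05. Syn2, the second synapsin, came next with 395, 392, 393 and 336 CPM in 5xFAD-Dp16, 314, 329, 295 and 373 in 5xFAD, 451, 446, 329 and 401 in Dp16, and 411, 433, 302 and 347 in wild-type. Its average Dp16 effect was 0.17 ± 0.10 (adjusted p = 1), and all 4 groups overlapped.

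Sv2a, the widely expressed vesicle glycoprotein to which the drug levetiracetam binds, had 193, 162, 262 and 194 CPM in 5xFAD-Dp16, 228, 148, 212 and 157 in 5xFAD, 278, 222.5, 157 and 144 in Dp16, and 313, 207, 82.03 and 275 in wild-type. Wild-type held both the highest and the lowest value. Its average 5xFAD effect was -0.11 log2 without the slope (adjusted p = 0.937) and -0.18 ± 0.05 with it (adjusted p = 0.0494), a call kept in 2 of the 16 fits that left out a library. That estimate was above 0, at 0.036, without wild-type replicate 1 in the fit without the slope. Rab3a, the vesicle GTPase that binds Rims1, had 607.6, 596.8, 485.3 and 546.7 CPM in 5xFAD, against 704.9, 753.9, 589.4 and 708.2 CPM in wild-type. The groups overlapped only through wild-type replicate 3, and without that library the difference was -0.36 (adjusted p = 0.359). Here too, the share of all genes that do so was not counted. Rab3a differed by -0.30 ± 0.15 (adjusted p = 0.765) and passed with both slopes, at -0.37 (adjusted p = 0.0419), as Syp did at -0.39 (adjusted p = 0.0322). Neither passed without the slope or with the length slope alone. Slc17a7 was at -0.14 and passed in neither of these fits.

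Of the 6 genes of the fusion machinery, Syt1 passed in 5xFAD against wild-type once the slope was in the model. Syt1, the calcium sensor of fast release, had 715, 503, 714 and 575.5 CPM in 5xFAD, against 1073, 778, 319 and 1009 CPM in wild-type. The wild-type libraries lay both above and below all of the 5xFAD libraries. It had 695, 617, 944 and 695 CPM in 5xFAD-Dp16 and 922, 748, 594 and 534 in Dp16. The difference in 5xFAD was -0.33 ± 0.30 log2 (adjusted p = 0.955), running from -0.62 without wild-type replicate 3 to -0.086 without wild-type replicate 1. It was -0.19 without 5xFAD replicate 2 and -0.189 without wild-type replicate 4. With the slope it was -0.27 ± 0.08 (adjusted p = 0.0487), a call kept in 4 of the 16 fits that left out a library. The average 5xFAD effect with the slope was -0.20 ± 0.06 (adjusted p = 0.0345), kept in 7 of 16. Snap25, with the values above, differed by -0.42 ± 0.23 (adjusted p = 0.805), by -0.17 without wild-type replicate 3, and by -0.36 ± 0.11 with the slope (adjusted p = 0.0605). Stx1a, Vamp2, Cplx1 and Cplx2 were between -0.16 and 0.00 and passed in neither fit.

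The active zone held the member with the smallest p in the fit with the slope. Rims1 encodes RIM1, the scaffold that tethers vesicles and calcium channels at the release site. It had 303, 181.5, 351 and 211 CPM in 5xFAD, against 225, 146, 84.9 and 222 CPM in wild-type, and the groups overlapped. In 5xFAD-Dp16 it had 182, 138.5, 231 and 257 CPM and in Dp16 179, 165, 130.4 and 111.5. The 2 5xFAD females were the highest of all 16 libraries. Without the slope the difference was 0.59 ± 0.30 log2 (adjusted p = 0.761), and 0.32 without wild-type replicate 3. With it, Rims1 rose by 0.63 ± 0.10 (adjusted p = 0.000165), and the call held in each of the 16 fits that left out a library, at 0.52 to 0.74. In 2 chosen pairs of libraries near in length slope the order was the same. That is no separate test, since the fit used these libraries, and the pairs were not matched on GC slope. 5xFAD replicate 1 (female, slope 0.156) had 303 CPM against 222 CPM in wild-type replicate 4 (male, slope 0.158). 5xFAD replicate 4 (slope -0.065) had 211 CPM against 146 CPM in wild-type replicate 2 (slope 0.002), both from males. The GC slopes per percent were 0.02 against 0.0095 in the first pair and -0.0031 against 0.0026 in the second. With the GC slope in place of the length slope, the estimate was 0.52 and did not pass (adjusted p = 0.0995), and with both slopes it was 0.66 (adjusted p = 0.000132). The 519744-base Rims1 gene lies on chromosome 1.

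**Figure D5:**
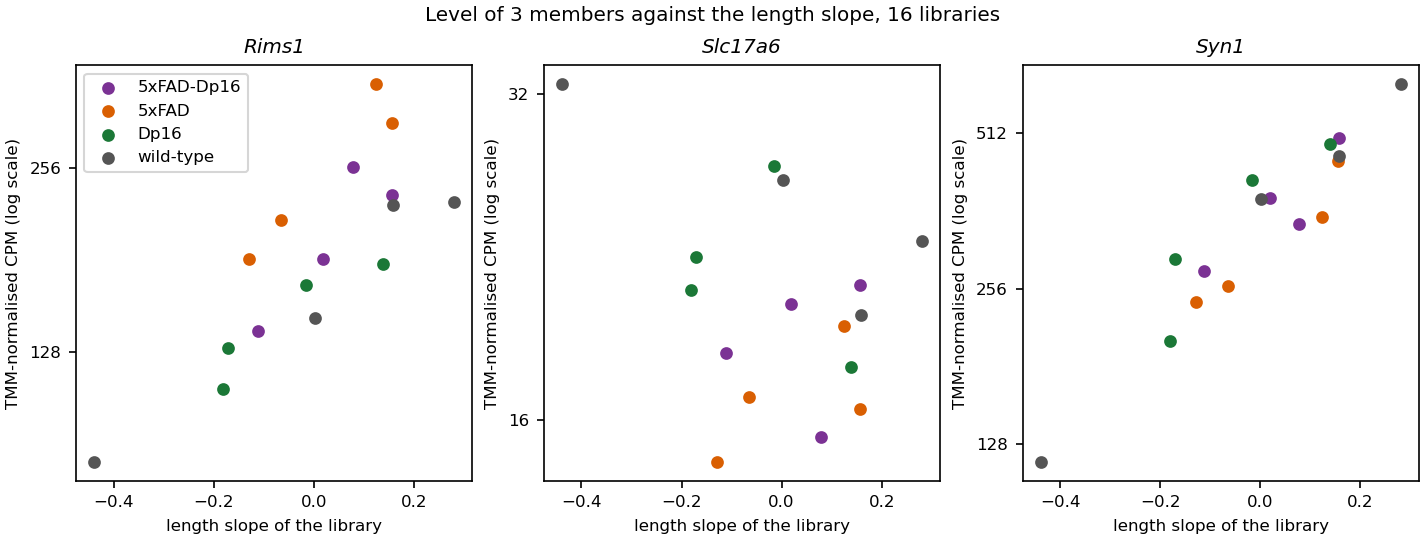
CPM on a log scale against the length slope of the library for Rims1, Slc17a6 and Syn1 in 16 libraries, coloured by group. At like slopes the 4 5xFAD libraries lie above wild-type and Dp16 for Rims1, and Syn1 is higher at higher slopes across the 16 libraries.

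The other pairwise differences of Rims1 did not pass without the slope or with the length slope alone, while its average 5xFAD effect passed with the slope. In 5xFAD-Dp16 against Dp16 it was 0.46 ± 0.30 without the slope (adjusted p = 0.980) and 0.25 ± 0.10 with it (adjusted p = 0.510). In 5xFAD-Dp16 against 5xFAD it was -0.36 without the slope and -0.39 ± 0.10 with it (adjusted p = 0.0634), and it passed as lower with both slopes, at -0.42 (adjusted p = 0.038). Its interaction with the slope was -0.38 ± 0.14 (adjusted p = 0.998). The average 5xFAD effect was 0.53 ± 0.21 without the slope (adjusted p = 0.445) and 0.44 ± 0.07 with it (adjusted p = 0.000155), which held in each of the 16 fits that left out a library. Unc13a (Munc13-1), which primes vesicles, was at -0.07, Bsn (Bassoon) at -0.14 and Pclo (Piccolo) at -0.27 in 5xFAD against wild-type, and these 3 passed in neither fit.

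For endocytosis, Dnm1, the neuronal dynamin that cuts the vesicle neck, was at -0.23 ± 0.34 and Amph, its partner amphiphysin, at -0.27 ± 0.17 in 5xFAD against wild-type. Neither passed without the slope or with the length slope alone, and Amph passed with both slopes, at -0.31 (adjusted p = 0.0473). It had 117.8, 110.7, 108 and 122.5 CPM in 5xFAD, against 168.6, 142.7, 97.36 and 146.4 CPM in wild-type, and the groups overlapped.

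Of the 6 postsynaptic scaffold genes, 0 passed in 5xFAD against wild-type in either fit, and the median was 0.02 log2 without the slope. Homer1 encodes the linker between Shank and group I metabotropic glutamate receptors. It had 159.6, 115, 147 and 99.78 CPM in 5xFAD, against 185, 175, 177 and 120.3 CPM in wild-type. In 5xFAD-Dp16 it had 178, 159, 172 and 138 CPM and in Dp16 154, 175, 156 and 143. The low values were both 5xFAD males and wild-type replicate 4. The difference of Homer1 in 5xFAD was -0.35 ± 0.16 (adjusted p = 0.670) and in 5xFAD-Dp16 against 5xFAD 0.33 ± 0.16 (adjusted p = 1). Shank1, the largest of the group in spread, had 271, 171, 443 and 491 CPM in 5xFAD-Dp16, 515, 250, 623 and 313 in 5xFAD, 378, 272, 294 and 197 in Dp16, and 666, 274, 179 and 527 in wild-type. Its difference in Dp16 against wild-type was -0.52 ± 0.40 (adjusted p = 1) and with the slope -0.21 ± 0.17 (adjusted p = 0.999). Dlg4, which encodes PSD-95, was at 0.01 in 5xFAD against wild-type, Dlg2 (PSD-93) at 0.12, Shank2 at 0.02 and Shank3 at 0.04.

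Among the postsynaptic signalling genes, Camk2a had 3096, 1836, 3118 and 1772 CPM in 5xFAD, against 3361, 1870, 699 and 2605 CPM in wild-type. It had 2160, 1433, 2521 and 2665 CPM in 5xFAD-Dp16 and 2542, 1835, 1418 and 1216 in Dp16. All pairs of groups overlapped. With the slope Camk2a passed as higher in 5xFAD than in wild-type, by 0.30 ± 0.08 (adjusted p = 0.0321). Without the slope it was at 0.17 ± 0.38 (adjusted p = 0.983), and at -0.16 without wild-type replicate 3 (adjusted p = 0.836). With the slope the call was kept in 12 of the 16 fits that left out a library. The average 5xFAD effect of Camk2a without the slope was 0.24, and 0.07 without wild-type replicate 3. Camk2b was at -0.09 and Nrgn at -0.06 and passed in neither fit.

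All 4 adhesion genes were below 0 in 5xFAD against wild-type, as were 10319 of all 17555 genes tested. The median of the 4 was -0.20. Nrxn3, a presynaptic neurexin spread over 1612.06 kb, had 97.2, 84.03, 94.3 and 90.5 CPM in 5xFAD, against 137, 108, 80.6 and 123 CPM in wild-type. In 5xFAD-Dp16 it had 104, 102, 121 and 107 CPM, all above the 4 5xFAD libraries, as in 1.73% of all genes tested. In Dp16 it had 120.5, 99.99, 94.1 and 113 CPM. In 5xFAD against wild-type the difference was -0.29 ± 0.16 (adjusted p = 0.800), -0.15 without wild-type replicate 1, and with the slope -0.29 ± 0.07 (adjusted p = 0.0173), kept in 11 of 16 fits that left out a library. In 5xFAD-Dp16 against 5xFAD it was 0.24 ± 0.16 (adjusted p = 1) and 0.23 ± 0.07 with the slope (adjusted p = 0.159). Nlgn1, the neuroligin of glutamatergic synapses, had 48.9, 61.7, 56.1 and 51.1 CPM in 5xFAD-Dp16, 49.4, 56.1, 46.7 and 55.6 in 5xFAD, 62.7, 54.3, 54.7 and 62.6 in Dp16, and 60, 69.5, 48.4 and 62.2 in wild-type. In each group both males were above both females, and how many of all genes show this order was not counted. For females against males Nlgn1 was at -0.23 ± 0.08 (adjusted p = 1). Between the sexes 0 members and 0.0456% of all genes passed, and 1 member and 2.93% of all genes had an unadjusted p under 0.05. Nlgn2, of inhibitory synapses, and Nrxn2 were at -0.20 and -0.11 in 5xFAD against wild-type.

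Whether the 5xFAD difference depended on Dp16 was tested as an interaction. There 0 members passed, 0% of all genes did, and 0 members and 1.36% of all genes had an unadjusted p under 0.05. The interaction was above 0 in 32 of 33 members without the slope, with a median of 0.21 against 0.04 over all genes, and in 22 with it, with medians of 0.03 and 0.01. Of all 17555 genes tested 10026 were above 0 without the slope and 8950 with it. Rims1 was the member below 0 without the slope. Homer1 had the smallest p, at 0.40 ± 0.22 (adjusted p = 1), and Slc17a6 followed at 0.39 ± 0.24 (adjusted p = 1). In Dp16 against wild-type, 27 of 33 members were below 0 without the slope (median -0.13, against -0.03 over all genes). With the slope 14 were, and the medians were 0.02 and 0.00. Of all genes 10025 were below 0 there without the slope and 8609 with it. With the slope, 0 members passed in Dp16 against wild-type, in 5xFAD-Dp16 against wild-type, Dp16 or 5xFAD, in the average Dp16 effect, in the interaction or between the sexes. The shares of all genes that passed were 0.251%, 2.04%, 1.21%, 0.695%, 1.03%, 0% and 0.0741%, in that order. Members with an unadjusted p under 0.05 then numbered 0, 2, 2, 10, 11, 5 and 8, beside 5.42%, 9.46%, 6.47%, 12.8%, 13.2%, 4.4% and 9.29% of all genes.

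Other genes of the same pathways were counted in the same way. Without the slope, 0 of 37 other release genes, 33 other active zone and endocytosis genes, 33 other postsynaptic genes and 39 other adhesion genes passed in 5xFAD against wild-type, where 3, 1, 2 and 3 of them had an unadjusted p under 0.05. Of all genes 1.52% passed there and 7.1% had an unadjusted p under 0.05. With the slope 3, 2, 1 and 4 of them passed, where 5.29% of all genes did, 3.99% higher and 1.3% lower. The active zone genes that passed were Ppfia4, at 0.74 ± 0.13 (adjusted p = 0.000634), and Ppfia3, at 0.45 ± 0.08 (adjusted p = 0.00106), both higher in 5xFAD. They encode liprins-alpha, which bind RIM proteins at the active zone. Ppfia4 had 65.03, 40.99, 60.3 and 49.3 CPM in 5xFAD, against 44.3, 38.8, 13.1 and 37.3 CPM in wild-type, and 1 5xFAD library lay below the highest wild-type one. The release genes that passed were Syt4, Synpr and Syngr3, the postsynaptic gene was Ppp3cb (a calcineurin subunit), and the adhesion genes were Slitrk4, Cadm3, Lrrtm3 and Slitrk5. All of these were lower in 5xFAD, by log2 differences of -0.54 to -0.28. Synpr had 106.9 to 252.9 CPM in 5xFAD and 144.2 to 503.8 in wild-type, the highest in wild-type replicate 3. The groups also overlapped in Ppfia3 and Syngr3. In Slitrk4 every 5xFAD library was below every wild-type library, as in 1.52% of all genes tested. For the average Dp16 effect with the slope, Synj1 and Itsn1 passed among the endocytosis genes, at 0.72 ± 0.07 and 0.42 ± 0.06, and both are genes of the duplicated chromosome 16 segment. Of all genes 1.03% passed in that comparison.

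Markers of other cells moved with 5xFAD. Without the slope, 13 of 16 microglia markers and 3 of 12 astrocyte markers passed as higher in 5xFAD than in wild-type, where 1.52% of all genes passed. Microglia markers summed to 2599 to 3684 CPM in 5xFAD and 767 to 1046 CPM in wild-type, and astrocyte markers to 7999 to 11020 and 5301 to 7067 CPM, in that order of groups. Pan-neuronal markers summed to 7880 to 8932 CPM in 5xFAD and 8848 to 11050 CPM in wild-type, and inhibitory neuron markers to 1110 to 1424 and 1441 to 2049 CPM. Striatum markers summed to 743.7 to 1620 and 1322 to 1956 CPM, and to 1576 to 1880 CPM in 5xFAD-Dp16. All 12 striatum markers were below 0 in 5xFAD against wild-type (median -0.40 log2 without the slope), and 0 passed in either fit. Choroid plexus markers ran from 167.3 CPM in a Dp16 library to 3052 CPM in a 5xFAD-Dp16 library. With the slope 4 of 18 pan-neuronal markers (Stmn3, Uchl1, Elavl4 and Tubb3) and 4 of 12 inhibitory neuron markers (Sst, Gad1, Vip and Dlx6os1) passed as lower, and 0 of 12 excitatory cortical neuron markers did. Of all genes 1.3% passed as lower there. The part of these shifts in the members' differences was not tested.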

How the data were processed

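The authors deposited a table of raw read counts per gene, without normalization, and a table of RPKM values, scaled by gene length and library total. Per the submitters' processing notes, reads were handled with bcl2fastq, FastQC 0.11.5, HISAT2 2.1.0, SAMtools 1.5 and HTSeq 0.6.1 on GRCm38; the strand setting of the counting was not given in the sources used here. Overlapping genes and near copies may share reads. The library kit was strand-specific, per the labels' protocols. Exonic length was the count divided by RPKM and library total. Coordinates and transcript GC came from GENCODE M21 (GRCm38), by gene identifier.

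Counts were tested with edgeR 4.0.16 in R 4.3.3 (quasi-likelihood, TMM, minimum count of 10, robust, sex as covariate, all 16 libraries), with p-values adjusted by Benjamini-Hochberg over 17555 genes and a threshold of 0.05. Errors of fold changes are standard errors from the F statistic. CPM are TMM-normalised. The length slope used genes with a mean log2 CPM above 2. Alternatives were DESeq2 1.42.0, limma 3.58.1 on log2(RPKM + 0.1) and log2(RPKM + 1), other scaling, filters and covariates, and leaving out libraries. The fits were also run on simulated counts, where a length effect, if any, was linear in log2 length, as the fit with the slope assumes. How the fits do for genes that depart from this form was not tested. The members, lists, motifs and tests were chosen with earlier results of these data known, and the motifs after a wider search. All members are named, as are the called genes of each other list, at most 4 per comparison. Full values are given for members called without the slope, with the length slope or with both slopes, the 2 of smallest p in each comparison and those of steepest length slope coefficient. Nothing in the labels says how samples were raised, so p-values measure the spread between these samples. The RNA of 16 libraries matched the sex label by Xist and Ddx3y.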

Additional observations from a re-analysis of the deposited data

Results flagged for a closer look

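In 5 of the member and group combinations, of 132 examined, 1 library stood apart from the other 3 of its group beyond the 95% critical value of Dixon's gap test. Chance alone flags about 5% of such groups. Syn2 at 336 CPM, Syp at 1073 CPM and Rab3a at 519.8 CPM were low in 5xFAD-Dp16 replicate 4. Snap25 was high in wild-type replicate 3, at 8364 CPM. Homer1 was low in wild-type replicate 4, at 120.3 CPM.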

How the results depend on the processing

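Each comparison was refitted under other settings, and 0 members passed in each pairwise comparison, average effect, interaction and sex comparison in each fit without 1 library and without the slope. The number of members called in 5xFAD against wild-type was 1 with DESeq2, 5 with the length slope, 4 with the slope from genomic span, 11 with the length slope and the replicate block, 2 with a GC slope and 7 with both slopes. For the average 5xFAD effect it was 1 with DESeq2, 1 with no filter on low counts, 5 with the length slope, 3 with the genomic span, 12 with slope and block, 1 with a GC slope and 9 with both. For 5xFAD-Dp16 against 5xFAD it was 1 with the genomic span, 3 with slope and block and 1 with both slopes, and for the average Dp16 effect 2 with slope and block. Over all genes, 266 passed in 5xFAD against wild-type and 470 did with DESeq2, 426 with no filter, 928 with the length slope, 616 with the GC slope and 115 in a fit of the compared libraries alone. In 5xFAD-Dp16 against wild-type 88 passed, against 228 with DESeq2, 258 with no filter, 358 with the length slope and 9 with the compared libraries alone. In 5xFAD-Dp16 against Dp16 these counts were 68, 179, 236, 212 and 44, in 5xFAD-Dp16 against 5xFAD 1, 27, 42, 122 and 20, and for the average 5xFAD effect 383, 613 with DESeq2, 643 with no filter and 1053 with the length slope. The share of all genes passing in 5xFAD against wild-type was 5.46% with the genomic span, 8.64% with slope and block, 3.51% with the GC slope and 4.64% with both slopes, and for the average 5xFAD effect 6.26%, 9.66%, 4.04% and 6.02%. In 5xFAD-Dp16 against 5xFAD it was 0.712%, 2.11% and 0.729% with the genomic span, slope and block, and both slopes, and for the average Dp16 effect 2.39% with slope and block. The GC slope, both slopes together and the slope fits without 1 library were chosen after seeing the data. For the slope term, 24 to 27 members passed in the fits without 1 library. Camk2a, at 0.17 in 5xFAD against wild-type, was at -0.15 there without the 3 libraries of lowest slope and between -0.16 and 0.505 over the fits without 1 library (lowest without wild-type replicate 3), and at -0.091 in the average effect without the 3 libraries. The average 5xFAD effect of Sv2a, at -0.11, was 0.021, 0.017 and 0.021 under limma with a pseudocount of 0.1, of 1 and of 0.1 without the filter, and ran from -0.26 to 0.036 over the fits without 1 library (highest without wild-type replicate 1). The cause was not tested. In all, 854 values of single members were recomputed, of which 778 kept direction and call, 69 passed newly and 7 changed direction. They cover only the 28 pairs of member and comparison that passed in at least 1 of these settings. No pair could lose a call, since 0 members passed in the edgeR fit without the slope. These counts therefore do not measure how stable the members are.

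Correlations did not settle whether the replicate numbers of the labels pair the samples. Of 24 same-numbered pairs, 9 had a correlation over 0.1, and the 24 ran from -0.354 to 0.514. Other-numbered pairs ran from -0.62 to 0.445. The replicate block gave 0 members called in each comparison.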
